A study of Homo sapiens with 6 samples.

Results

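The 41 human nuclear receptor genes outside the steroid receptors were examined for peaks of the SWI/SNF subunits BRG1 and SMARCC2 in MR49F and LNCaP prostate cancer cells. The genes were listed by name, and they covered 17 subfamilies from NR0 to NR6A. For each gene the window was its RefSeq span in GRCh38 extended by 50 kb on each side, and a peak counted when its summit lay in that window. All 41 genes were found among the 20037 protein-coding genes of the RefSeq table. Their windows covered 8.68 Mb without double counting and held 339 of the 65483 regions that the 4 peak lists formed together. A region was a set of peaks that shared at least 1 bp, chained across lists.

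One line was MR49F, an enzalutamide-resistant derivative of LNCaP, grown in medium with 10 µM enzalutamide. It was set against LNCaP, an androgen-responsive line from a lymph node metastasis of prostate cancer, for which the labels give the same medium with no drug. Enzalutamide blocks the androgen receptor, and line and drug exposure cannot be told apart here. BRG1 is the ATPase encoded by SMARCA4, and SMARCC2 (BAF170) is a scaffold subunit of the same chromatin remodelling complex. There was 1 library per line and antibody, so no value below has a replicate error or a p-value, and differences between the lines are given as descriptions. Each line also has an input sample, and these 2 inputs were not analysed here.

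Nuclear receptors are transcription factors that bind DNA through paired zinc fingers and, in most members, a small fat-soluble ligand through a separate domain. Receptors for thyroid hormone, retinoic acid, vitamin D, fatty acids, oxysterols and bile acids share RXR as a partner and sit on repeats of the letters AGGTCA. Orphan members such as the REV-ERB, ROR, ERR, NR4A and COUP-TF proteins act as monomers or homodimers, or with RXR. SWI/SNF moves nucleosomes, and ligand-bound receptors are known to recruit it to chromatin. Peaks at a receptor gene show where the remodeller sat, not how much receptor the cells made.

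The MR49F lists held 44308 BRG1 and 47615 SMARCC2 peaks in all, and the LNCaP lists held 36174 and 25706. Every list reached down to a −log10 q between 2.00 and 2.01, the authors' q-value threshold of 0.01, and a missing peak says only that this threshold was not passed. Each of 9 genes that mark luminal prostate cells (among them KLK3, KLK2 and HOXB13) had peaks in every list, and the leukocyte gene PTPRC had 0 peaks in every list. Of 7 genes of leukocytes, fibroblasts, hepatocytes and muscle, the other 6 had between 1 and 5 peaks in at least 2 lists.

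As a set the receptor genes were split between the lines much as the whole lists were. Their windows held 242 BRG1 peaks in MR49F against 203 in LNCaP, a MR49F share of 54.4% (Wilson 95% interval 49.7% to 59.0%), where the whole lists gave 55.1%. With SMARCC2 the windows held 252 peaks in MR49F against 127 in LNCaP, a share of 66.5% (61.6% to 71.1%), beside 64.9% for the whole lists. Both whole-list values lay inside the receptors' intervals, which cover counting error only. The median receptor gene had 1 more BRG1 peak in MR49F than in LNCaP, equal to the median over all coding genes, and 3 more SMARCC2 peaks, where the median over all coding genes was 1. The receptor windows were also longer, with a median of 144 kb against 124 kb.

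BRG1 peaks were more numerous in MR49F at 24 of the 41 receptor genes (58.5%, against 51% of all coding genes) and in LNCaP at 10 (24.4%, against 20.5%). SMARCC2 peaks were more numerous in MR49F at 33 receptor genes (80.5%, against 69.1% of all coding genes) and in LNCaP at 2 (4.88%, against 7.1%). Both antibodies favoured MR49F at 22 receptor genes (53.7%), against 44.9% of all coding genes. Both favoured LNCaP at 1, NR1I3, against 4.01% of all coding genes. A lead of at least 3 peaks with each antibody was held in MR49F by 10 genes (24.4%), beside 13.2% of all coding genes. Those 10 were RORA, ESRRA, RXRA, RARA, THRA, NR1D1, NR4A1, NR2F6, NR5A2 and NR1H4. No receptor gene had such a lead in LNCaP, where 0.245% of all coding genes did. Of the 10 genes, THRA and NR1D1 hold largely the same peaks, as their windows share 101.1 kb.

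These counts rest on lists of unequal length. When every list was shortened to its 25706 strongest peaks, the length of the LNCaP SMARCC2 list, both antibodies favoured MR49F at 9 receptor genes and LNCaP at 10, against 17.6% and 18.1% of all coding genes.

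**Figure D1:**
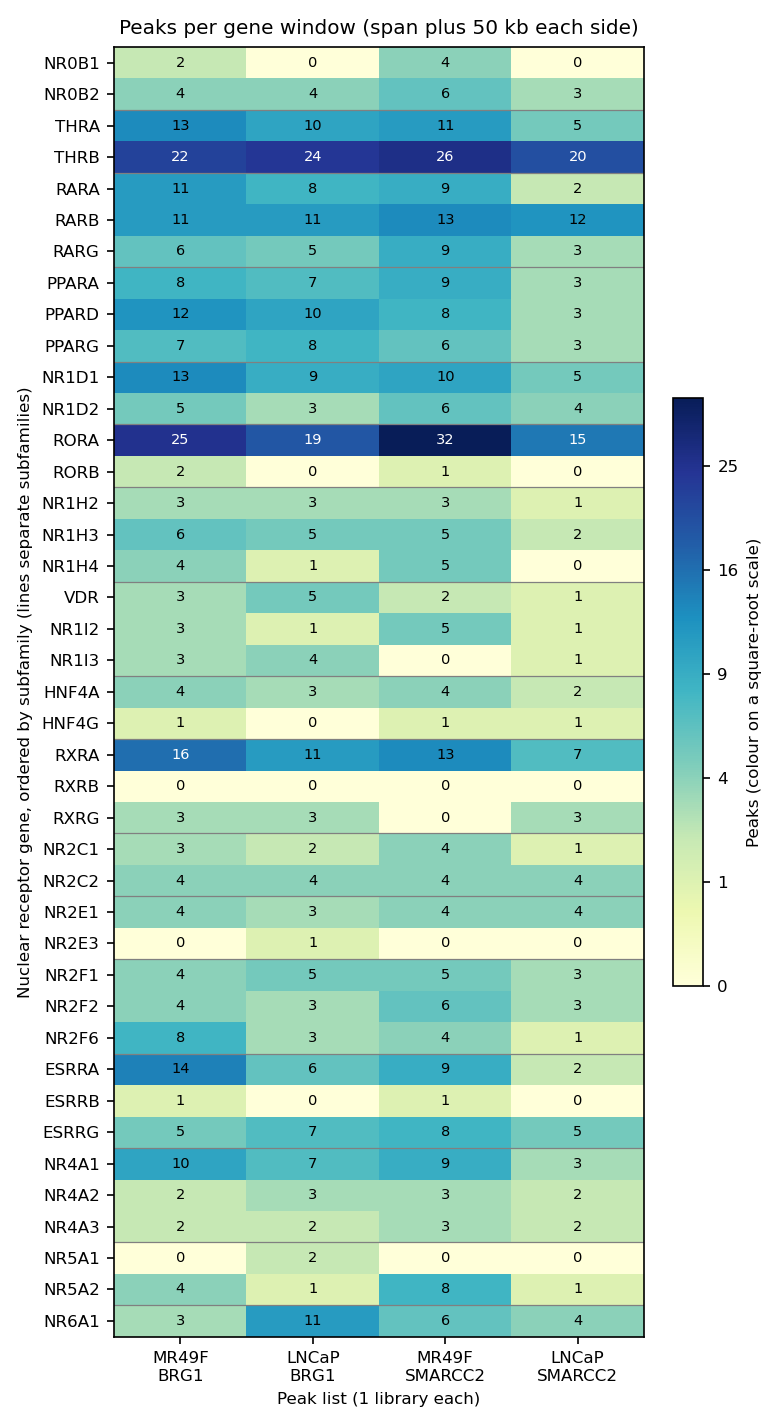
Number of peaks in the window of each of the 41 receptor genes (rows, grouped by subfamily) in the 4 peak lists (columns, 1 library each), with the count printed in each cell and the colour on a square-root scale. RORA and THRB held the most peaks, with 91 and 92 over the 4 lists, and RXRB held 0 in each.

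The partner receptors came out differently from each other. RXRA, which pairs with most of the ligand-bound members, lies at chr9:134326455-134440585 with no other coding gene in its window. It held 16 BRG1 peaks in MR49F against 11 in LNCaP, and 13 SMARCC2 peaks in MR49F against 7 in LNCaP. The RXRA peaks were mostly inside the gene, with 11 and 9 of them within its span in the MR49F BRG1 and SMARCC2 lists, against 6 and 5 in the LNCaP lists.

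A region of 8345 bp at chr9:134354123-134362467, 30.7 kb into RXRA, had peaks in all 4 lists. Its −log10 q was 71.7 with BRG1 and 61.0 with SMARCC2 in MR49F, against 21.4 and 27.0 in LNCaP, which placed it at rank 657 and 2275 of the MR49F lists and 1985 and 1339 of the LNCaP lists. These −log10 q values are the authors' own and depend on depth, so they rank peaks within a list only. Directly downstream came a pair of wide regions called with both antibodies in MR49F and with neither in LNCaP. The first, chr9:134364744-134368704, reached 36.6 with BRG1 and 27.1 with SMARCC2. The next, chr9:134373141-134379712, was 6572 bp wide, reached 36.0 and 32.2, and ended over an internal RefSeq start site of RXRA. The local background of the 10 Mb around RXRA was close to equal in the lines, with MR49F to LNCaP ratios of 1.02 in the BRG1 lists and 1.05 in the SMARCC2 lists. With lists of equal length (25706 peaks) the RXRA difference with SMARCC2 was -1.

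RXRG, a family member with a narrow expression pattern, held 3 BRG1 peaks in each line, and 0 SMARCC2 peaks in MR49F against 3 in LNCaP. RXRG and NR1I3 were the only receptor genes with more SMARCC2 peaks in LNCaP. A region 69.3 kb downstream of the RXRG start, chr1:165374954-165376542, was called with both antibodies in LNCaP alone, at −log10 q 8.69 and 7.29. RXRB, the broadly expressed member, was the only receptor gene with 0 peaks in every list, where 90.6% of all coding genes had at least 1. The stretch of chromosome 6 from 28 to 33 Mb, just before RXRB, held 10 and 7 peaks in the MR49F BRG1 and SMARCC2 lists, against 5 and 6 in the LNCaP lists. The 5 Mb before it held 107 BRG1 peaks in MR49F against 96 in LNCaP, and the 5 Mb from 34 Mb onward held 132 in MR49F against 113 in LNCaP. This stretch contains the major histocompatibility complex, and how reads there were filtered is not given in the sources used here.

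The thyroid hormone, retinoic acid and REV-ERB receptor genes lie in matching neighbourhoods, with THRB, NR1D2 and RARB on chromosome 3 and THRA, NR1D1 and RARA on chromosome 17. THRB, a receptor for thyroid hormone at chr3:24117153-24495708, had the most peaks of the 41 genes. It held 22 BRG1 peaks in MR49F against 24 in LNCaP, and 26 SMARCC2 peaks in MR49F against 20 in LNCaP. By peak count the 2 antibodies thus leaned in opposite directions at THRB. The BRG1 part depends on how peaks were split, as region chr3:24137592-24142401 held 1 BRG1 peak in MR49F against 3 in LNCaP. Of the THRB regions, 13 had peaks in all 4 lists and 3 were called with both antibodies in MR49F alone. The strongest of these 3, chr3:24353279-24354866, had −log10 q 17.5 with BRG1 and 22.7 with SMARCC2.

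Deep in THRB, 355 kb from its outermost start, region chr3:24137592-24142401 was among the strongest of the MR49F lists. It had −log10 q 121 with BRG1 and 287 with SMARCC2 in MR49F, rank 182 and 114 of those lists, against 16.3 and 11.6 in LNCaP, rank 3726 and 6196. RARB, a retinoic acid receptor gene of the same neighbourhood, had a region of similar rank 9.33 kb from its start. There chr3:24837816-24839582 had −log10 q 109 and 225 in MR49F, rank 238 and 197, against 12.2 and 10.7 in LNCaP, rank 6902 and 7009. Both regions were listed in both lines. The THRB region held 1 BRG1 peak in MR49F against 3 in LNCaP, and 2 SMARCC2 peaks in each line, while the RARB region held 1 peak in each list. Around THRB the local background ratio of MR49F to LNCaP was 0.963 with BRG1 and 1.03 with SMARCC2.

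RARB held 11 BRG1 peaks in each line, and 13 SMARCC2 peaks in MR49F against 12 in LNCaP. Regions of a single line lay side by side in it, 2 called with both antibodies in MR49F alone and 2 in LNCaP alone. The stronger MR49F region, chr3:25261921-25263007, had −log10 q 10.3 and 24.9, and the stronger LNCaP region, chr3:25454408-25455147, had 5.52 and 9.39. The LNCaP region lay before an internal RARB start site.

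NR1D2, which encodes the heme-binding clock repressor REV-ERB beta, held 5 BRG1 peaks in MR49F against 3 in LNCaP, and 6 SMARCC2 peaks in MR49F against 4 in LNCaP. Its strongest region, chr3:23958553-23961652, lay 14.2 kb into the gene in all 4 lists, at −log10 q 27.8 and 68.9 in MR49F and 14.6 and 19.3 in LNCaP. A nearby region, chr3:23956457-23957232, was called in both MR49F lists alone, at 10.9 and 19.8.

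On chromosome 17 the windows of THRA and NR1D1 shared 101.1 kb, so their counts are largely the same peaks. THRA, the other thyroid hormone receptor gene, held 13 BRG1 peaks in MR49F against 10 in LNCaP, and 11 SMARCC2 peaks in MR49F against 5 in LNCaP. NR1D1, which encodes REV-ERB alpha, held 13 and 10 in MR49F, against 9 and 5 in LNCaP. Inside their own spans the picture was thinner. THRA had 3 BRG1 and 4 SMARCC2 peaks in MR49F against 4 and 3 in LNCaP, and NR1D1 had 2 and 1 in MR49F against 0 and 0 in LNCaP. Region chr17:40068376-40076562 inside THRA, present in all 4 lists, held 1 BRG1 peak in MR49F against 3 in LNCaP. The BRG1 count within THRA thus depends on how a region was split into peaks. The strongest region of MR49F alone in the shared stretch, chr17:40099478-40100561, lay just inside NR1D1, within 1 kb of its start site, with −log10 q 14.8 with BRG1 and 3.50 with SMARCC2. With peaks of −log10 q 5 or more only, the BRG1 difference was -1 at both THRA and NR1D1. At equal list length (25706 peaks) both antibodies leaned to LNCaP at both genes, with differences of -2 with BRG1 and -1 with SMARCC2.

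RARA, the retinoic acid receptor of the same stretch, held 11 BRG1 peaks in MR49F against 8 in LNCaP, and 9 SMARCC2 peaks in MR49F against 2 in LNCaP. It had 4 regions of MR49F alone and 0 of LNCaP alone, and 3 of the 4 lay inside the gene. The strongest, chr17:40314210-40314944, had −log10 q 11.4 with BRG1 and 6.93 with SMARCC2. At equal list length (25706 peaks) the SMARCC2 difference at RARA was 0.

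RARG, the third retinoic acid receptor, held 6 BRG1 peaks in MR49F against 5 in LNCaP, and 9 SMARCC2 peaks in MR49F against 3 in LNCaP. Its strongest region of MR49F alone, chr12:53174712-53175901, lay in the neighbouring gene CSAD, at −log10 q 34.4 with BRG1 and 34.8 with SMARCC2. A region 18.1 kb before the RARG start, chr12:53250048-53251107, was called in both LNCaP lists alone, at 9.003 and 6.12. The local background around RARG was higher in MR49F, with ratios to LNCaP of 1.23 with BRG1 and 1.39 with SMARCC2, and its part in these counts was not tested.

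**Figure D2:**
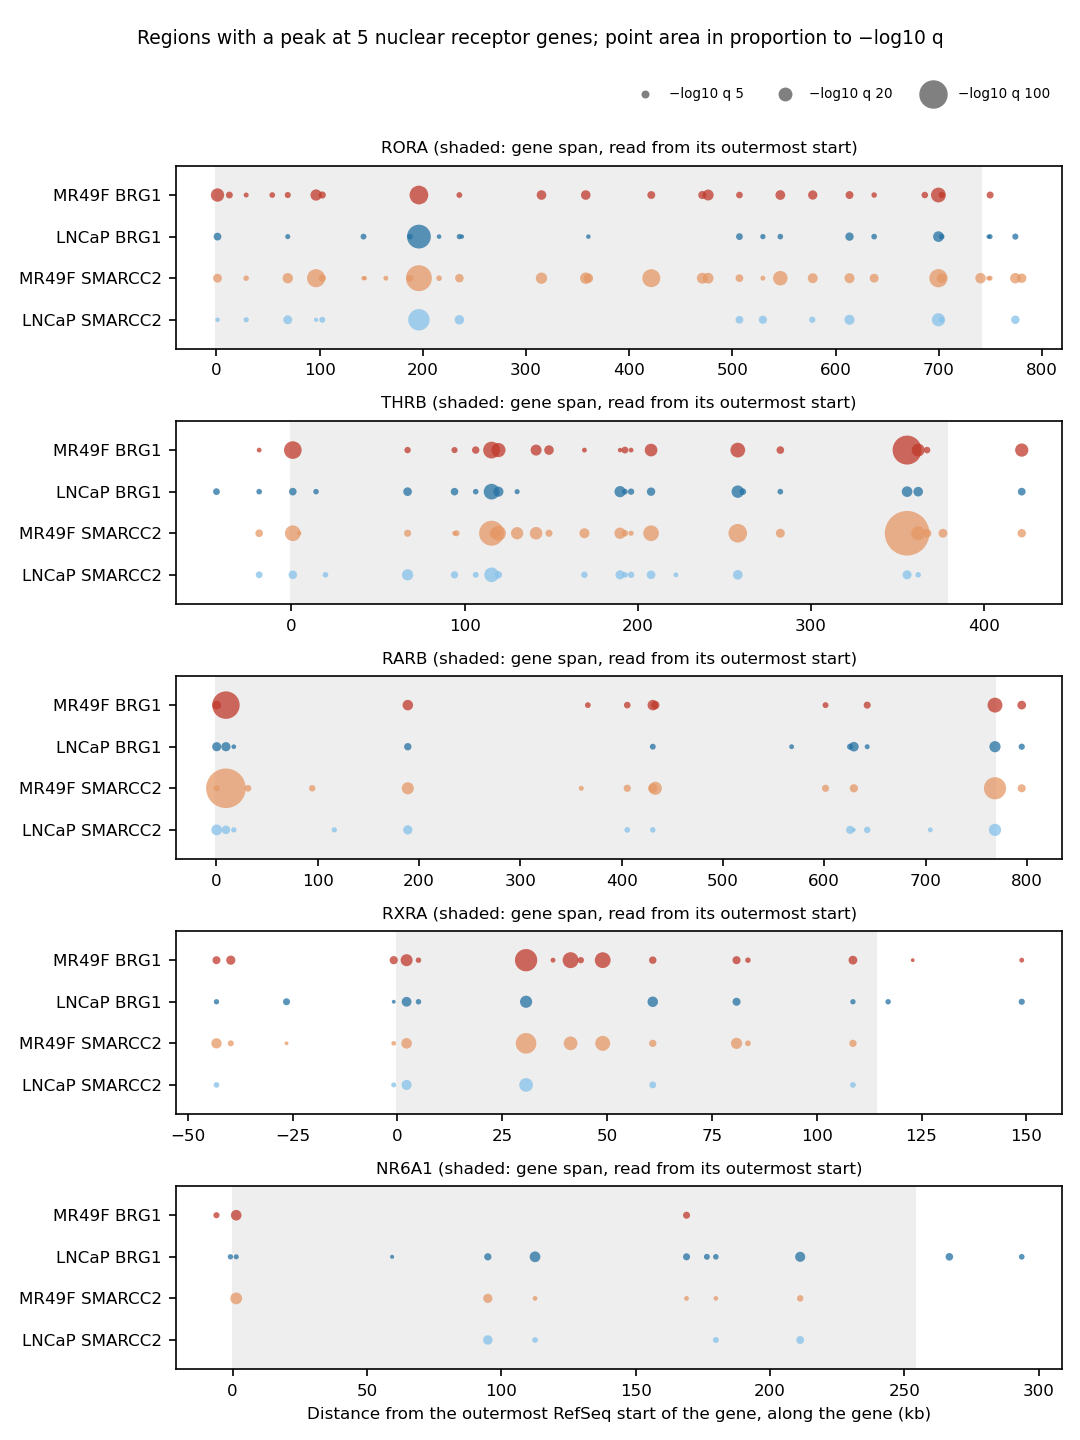
Regions with a peak along RORA, THRB, RARB, RXRA and NR6A1, placed by distance in kb from the gene's outermost RefSeq start (x axis), with a row per library, MR49F above LNCaP for each antibody. Point area is in proportion to the authors' −log10 q; THRB at 355 kb and RARB at 9.33 kb carry the largest points in the MR49F rows, and NR6A1 has more points in the LNCaP BRG1 row (11) than in the MR49F BRG1 row (3).

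RORA, an activator of the same clock elements that REV-ERB proteins repress, had the largest difference of the 41 genes with SMARCC2. The gene spans chr15:60488284-61229302, and its window of 841 kb holds 1 other coding gene. RORA held 25 BRG1 peaks in MR49F against 19 in LNCaP, and 32 SMARCC2 peaks in MR49F against 15 in LNCaP. Most lay within the gene, 23 and 28 in MR49F against 16 and 14 in LNCaP. RORA also had the most regions called with both antibodies in MR49F alone, 6, all inside the gene, and 0 of LNCaP alone.

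The RORA regions of MR49F alone were spread over about the middle of the gene, between 315 and 578 kb from its outermost start. By the weaker of its 2 antibodies the strongest was chr15:60751960-60753205, at −log10 q 17.3 with BRG1 and 16.7 with SMARCC2. Another, chr15:60807608-60808312, had 8.94 with BRG1 and 46.7 with SMARCC2. The strongest RORA region of all was shared by every list: chr15:61032372-61035653 had −log10 q 50.5 and 96.8 in MR49F, rank 1476 and 979, against 81.7 and 66.1 in LNCaP, rank 51 and 205. The local background ratio at RORA was 1.03 with BRG1 and 1.04 with SMARCC2. Limited to the 10000 strongest peaks per list, the SMARCC2 difference at RORA was -4. RORB, a paralogue best known from retina and brain, held 2 BRG1 peaks in MR49F against 0 in LNCaP, and 1 SMARCC2 peak in MR49F against 0 in LNCaP.

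The PPAR genes encode fatty acid sensors that act with RXR. PPARA, which drives fatty acid oxidation in liver, held 8 BRG1 peaks in MR49F against 7 in LNCaP, and 9 SMARCC2 peaks in MR49F against 3 in LNCaP. PPARD, the broadly expressed member, held 12 and 8 in MR49F, against 10 and 3 in LNCaP. PPARG, the regulator of fat cell formation, held 7 and 6 in MR49F, against 8 and 3 in LNCaP. Only 2 of the 35 PPAR regions were called with both antibodies in MR49F alone, and 0 in LNCaP alone. One of these was the widest MR49F peak at any receptor gene, 8702 bp at chr22:46101245-46109946, 46.7 kb before PPARA, with −log10 q 20.7 with BRG1 and 9.78 with SMARCC2. At the PPARG start the shared region chr3:12287065-12288739 had −log10 q 14.6 and 6.92 in MR49F, against 13.2 and 30.5 in LNCaP.

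Among the receptors for sterols, bile acids and foreign compounds, only NR1H4 had a MR49F lead of at least 3 peaks with each antibody. NR1H4, the bile acid receptor FXR, held 4 BRG1 peaks in MR49F against 1 in LNCaP, and 5 SMARCC2 peaks in MR49F against 0 in LNCaP. Its strongest region of MR49F alone, chr12:100601538-100602388, lay in the neighbouring gene GAS2L3, at −log10 q 25.8 with BRG1 and 46.9 with SMARCC2. Inside NR1H4 itself there was 1 peak per MR49F list and 0 in LNCaP, and the local background ratio was 1.21 with BRG1 and 1.19 with SMARCC2, whose part in the result was not tested.

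The oxysterol receptor genes were nearly even with BRG1. NR1H3 (LXR alpha) held 6 BRG1 peaks in MR49F against 5 in LNCaP, and 5 SMARCC2 peaks in MR49F against 2 in LNCaP, and NR1H2 (LXR beta) held 3 BRG1 peaks in each line, and 3 SMARCC2 peaks in MR49F against 1 in LNCaP. NR1I2, the xenobiotic receptor PXR, held 3 and 5 in MR49F, against 1 and 1 in LNCaP. Its region chr3:119786030-119786944, 4.50 kb into the gene, was called in MR49F alone, at −log10 q 19.8 and 49.0.

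NR1I3 and VDR leaned the other way with BRG1. NR1I3, the constitutive androstane receptor CAR, held 3 BRG1 peaks in MR49F against 4 in LNCaP, and 0 SMARCC2 peaks in MR49F against 1 in LNCaP. No NR1I3 peak lay inside the gene, and its region of LNCaP alone, chr1:161179169-161180223, lay 58.3 kb downstream of the start, at −log10 q 7.07 and 6.66. VDR, the vitamin D receptor, held 3 BRG1 peaks in MR49F against 5 in LNCaP, and 2 SMARCC2 peaks in MR49F against 1 in LNCaP. The local background ratio at VDR was 1.19 with BRG1 and 1.28 with SMARCC2.

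ESRRA, which with PGC-1 coactivators drives mitochondrial genes, had the largest BRG1 difference toward MR49F of the 41 genes. It held 14 BRG1 peaks in MR49F against 6 in LNCaP, and 9 SMARCC2 peaks in MR49F against 2 in LNCaP. The difference lay mostly outside ESRRA itself. Within its span, chr11:64305524-64316743, there was 1 peak per MR49F list, against 1 BRG1 and 0 SMARCC2 peaks in LNCaP, and 9 other coding genes share the window. Of the 5 regions of MR49F alone, 1 lay 0.8 kb before the ESRRA start and the others over PLCB3, BAD, GPR137 and TRMT112. The strongest, chr11:64268282-64269949 in PLCB3, had −log10 q 13.0 with BRG1 and 12.7 with SMARCC2. Limited to the 10000 strongest peaks per list, the ESRRA difference was -1 with BRG1 and 0 with SMARCC2.

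ESRRG, a relative active in oxidative tissues, held 5 BRG1 peaks in MR49F against 7 in LNCaP, and 8 SMARCC2 peaks in MR49F against 5 in LNCaP, all in its own long span. ESRRB, known from pluripotent cells in mouse, held 1 peak per MR49F list and 0 in LNCaP. That region, chr14:76376309-76377200, lay within 1 kb of a RefSeq start site. The local background ratio at ESRRB was 1.19 with BRG1 and 1.20 with SMARCC2.

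The NR4A genes are immediate early genes. NR4A1 held 10 BRG1 peaks in MR49F against 7 in LNCaP, and 9 SMARCC2 peaks in MR49F against 3 in LNCaP. It had 3 regions of MR49F alone, 2 of them in the gene, and the strongest, chr12:52069834-52070890, lay in ATG101 at −log10 q 11.9 and 12.7. The local background around NR4A1 was the highest in MR49F relative to LNCaP with BRG1, 1.31, and was 1.37 with SMARCC2. Its part in the count was not tested. NR4A2 held 2 BRG1 peaks in MR49F against 3 in LNCaP, and 3 SMARCC2 peaks in MR49F against 2 in LNCaP, while NR4A3 held 2 BRG1 peaks in each line, and 3 SMARCC2 peaks in MR49F against 2 in LNCaP.

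NR5A2 and NR6A1 formed a contrast. NR5A2 (LRH-1), a receptor of liver, gut and pancreas, held 4 BRG1 peaks in MR49F against 1 in LNCaP, and 8 SMARCC2 peaks in MR49F against 1 in LNCaP. No other coding gene lies in its window, and 4 and 7 of the MR49F peaks were inside NR5A2. Its region of MR49F alone, chr1:200049024-200049761, lay 21.7 kb into the gene at −log10 q 19.2 and 24.8.

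NR6A1 (germ cell nuclear factor), known in mouse embryos for silencing Pou5f1, had the largest BRG1 difference toward LNCaP. It held 3 BRG1 peaks in MR49F against 11 in LNCaP, a MR49F share of 21.4% (Wilson 95% interval 7.57% to 47.6%). With SMARCC2 it held 6 peaks in MR49F against 4 in LNCaP. Of the LNCaP BRG1 peaks 8 lay inside the gene, against 2 of the MR49F ones. At 4 places inside NR6A1, the farthest 211 kb from the start, BRG1 was listed in LNCaP and not in MR49F while SMARCC2 was listed in both lines. Among them chr9:124658056-124660110 had −log10 q 16.6 with BRG1 in LNCaP, and 3.19 with SMARCC2 in MR49F against 4.68 in LNCaP. With lists of equal length (25706 peaks) the NR6A1 difference was -5 with BRG1 and -2 with SMARCC2, so that both antibodies leaned to LNCaP. No NR6A1 region was of a single line with both antibodies. NR5A1 (steroidogenic factor 1), whose window shares 90.1 kb with that of NR6A1, held 0 BRG1 peaks in MR49F against 2 in LNCaP, and 0 SMARCC2 peaks in both lines.

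**Figure D3:**
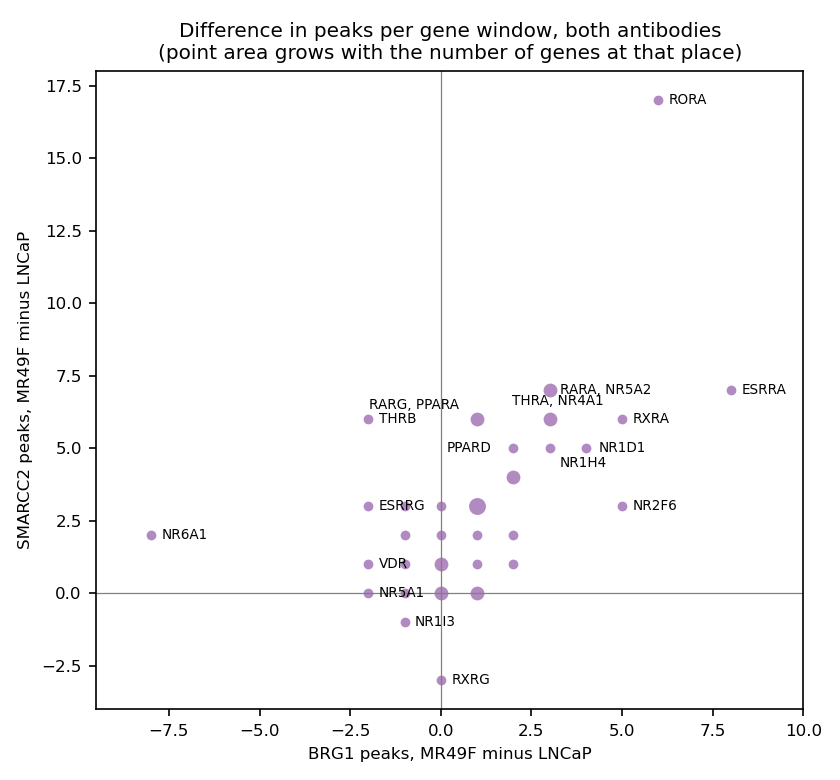
Difference in the number of peaks per gene window, MR49F minus LNCaP, with BRG1 (x axis) and SMARCC2 (y axis) for the 41 receptor genes. RORA lies at 6 and 17, ESRRA at 8 and 7 and NR6A1 at -8 and 2; 22 genes lie above and right of both zero lines, and 1, NR1I3, below and left of them.

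The COUP-TF genes encode orphan receptors that often repress. NR2F6 held 8 BRG1 peaks in MR49F against 3 in LNCaP, and 4 SMARCC2 peaks in MR49F against 1 in LNCaP. Its window is crowded, with 8 other coding genes, and 3 of the MR49F BRG1 peaks were inside NR2F6 against 1 in LNCaP. NR2F2 held 4 and 6 in MR49F, against 3 and 3 in LNCaP. A region of 7373 bp over NR2F2, chr15:96330725-96338097, had peaks in all 4 lists.

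NR2F1 carried a region of each line close together. It held 4 BRG1 peaks in MR49F against 5 in LNCaP, and 5 SMARCC2 peaks in MR49F against 3 in LNCaP. Region chr5:93557151-93557823, 25.7 kb before its start, was called in MR49F alone, at −log10 q 24.2 and 53.8. Region chr5:93582796-93583388, at the start site itself, was called in LNCaP alone, at 4.11 and 6.18. The next region on each side of it had MR49F peaks of both antibodies. Their −log10 q in MR49F was 13.3 and 6.17 at chr5:93580407-93582159, and 15.3 and 15.3 at chr5:93583851-93585841.

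The remaining NR2 and NR0 genes held at most 6 peaks in any list. HNF4A, a regulator of liver and gut genes, held 4 and 4 BRG1 and SMARCC2 peaks in MR49F, against 3 and 2 in LNCaP, and its paralogue HNF4G held 1 and 1 in MR49F, against 0 and 1 in LNCaP. NR2C1 held 3 and 4 in MR49F, against 2 and 1 in LNCaP, and NR2C2 held 4 in each of the 4 lists. The local background ratio at NR2C1 was 1.26 with BRG1 and 1.20 with SMARCC2, and its part in the counts was not tested. NR2E1, known from neural stem cells, held 4 and 4 in MR49F, against 3 and 4 in LNCaP. Its upstream region chr6:108154853-108157702 was strong in every list, with −log10 q 46.0 and 50.1 in MR49F and 78.6 and 63.6 in LNCaP. NR2E3, a photoreceptor gene, held 0 peaks in MR49F, against 1 BRG1 and 0 SMARCC2 peaks in LNCaP.

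NR0B1 and NR0B2 encode repressors without a DNA-binding domain. NR0B1 (DAX1), on the X chromosome, held 2 and 4 in MR49F, against 0 and 0 in LNCaP, and its local background ratio was 1.25 with BRG1 and 1.27 with SMARCC2. NR0B2 (SHP) held 4 BRG1 peaks in each line, and 6 SMARCC2 peaks in MR49F against 3 in LNCaP. None of the NR0B1 or NR0B2 peaks lay inside the genes. The NR0B2 window held a region of MR49F alone, chr1:26864290-26865991, at −log10 q 15.98 and 7.57, and a region of LNCaP alone inside NUDC, chr1:26921808-26923062, at 11.7 and 11.3.

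By subfamily, the MR49F share ran from 47.4% at the NR1I genes to 62.5% at the HNF4 genes with BRG1, apart from the single gene NR6A1. With SMARCC2 it ran from 50.0% at the NR2E genes to 88.9% at the NR5A genes. The whole-list share lay inside the Wilson 95% interval of 16 of 17 subfamilies with BRG1 and of 17 of 17 with SMARCC2. The exception was NR6A1 with BRG1.

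**Figure D4:**
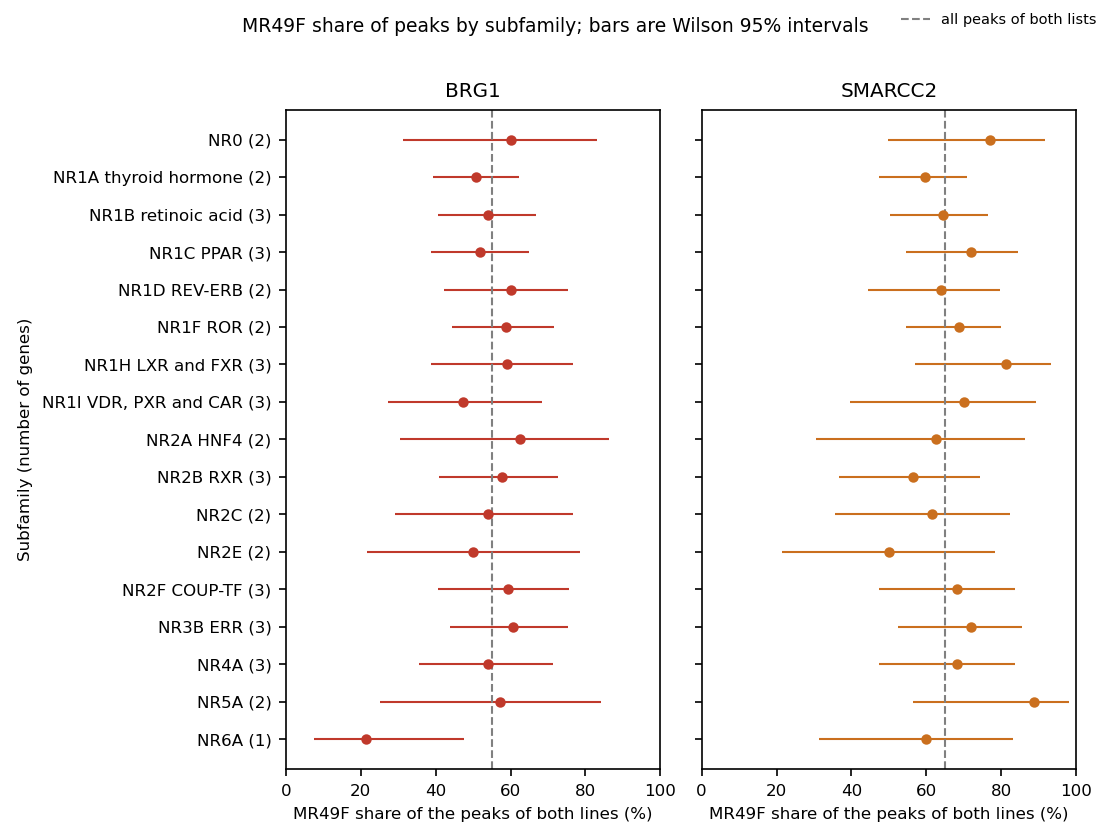
MR49F share of the peaks of both lines in percent (x axis) for the 17 subfamilies (rows, with the number of genes), BRG1 on the left and SMARCC2 on the right, with Wilson 95% intervals that cover counting error only. The dashed lines mark the whole lists, 55.1% and 64.9%; the NR6A1 interval with BRG1 ends at 47.6%.

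Across the 339 regions at receptor genes, 75 (22.1%, interval 18.0% to 26.8%) had peaks in all 4 lists, against 22.7% of the 65483 regions genome-wide. Regions called with both antibodies in MR49F alone numbered 54 (15.9%, 12.4% to 20.2%), against 18.3% genome-wide. Those of LNCaP alone numbered 8 (2.36%, 1.20% to 4.59%), against 3.67% genome-wide. At least 1 such MR49F region was found at 27 of 41 receptor genes (65.9%), beside 55.4% of all coding genes, and at least 1 such LNCaP region at 7 (17.1%), beside 14.4%. The 7 were RARB with 2 regions, and NR0B2, RARG, NR1I3, RXRG, NR2C2 and NR2F1 with 1 each. Of the 54 MR49F regions, 31 lay in the span or within 1 kb of a start site of the receptor gene itself, 13 in another gene and 10 between genes. The receptor genes with neither kind were 11, among them PPARD, VDR, HNF4A, NR1H2, NR2E1, NR4A2 and NR6A1.

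Pairing of the subunits at receptor genes was close to that of the whole lists by overlap and lower in MR49F by summit distance. In MR49F, 186 of 242 BRG1 peaks (76.9%, interval 71.2% to 81.7%) shared at least 1 bp with a SMARCC2 peak, against 79.8% of the whole list. In LNCaP this held for 103 of 203 BRG1 peaks (50.7%, 43.9% to 57.5%), against 55.3% of the whole list. SMARCC2 peaks overlapped a BRG1 peak in 77.8% of cases in MR49F (72.2% to 82.5%) and 81.9% in LNCaP (74.3% to 87.6%), against 75.7% and 80.1% of the whole lists. With summits within 200 bp required, 53.7% of BRG1 peaks (47.4% to 59.9%) and 51.6% of SMARCC2 peaks (45.4% to 57.7%) paired in MR49F, and the whole-list values of 62.4% and 58.1% lay above these intervals. In LNCaP the same rule gave 36.0% (29.7% to 42.8%) and 57.5% (48.8% to 65.7%), beside 39.4% and 55.4% of the whole lists.

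Most receptor peaks lay away from the start sites listed for the receptor genes, and no whole-list share was computed for comparison. For 5 genes no start site was listed. Peaks within 1 kb of either end of those genes were counted apart, 3 BRG1 and 3 SMARCC2 in MR49F against 4 and 2 in LNCaP. The outermost start of some other genes, such as NR2F2, was also not listed, so the counts below can be too low. Within 1 kb of a start site of the receptor gene lay 21 BRG1 and 26 SMARCC2 peaks in MR49F (8.68%, interval 5.75% to 12.9%, and 10.3%, 7.14% to 14.7%), against 16 and 13 in LNCaP (7.88%, 4.91% to 12.4%, and 10.2%, 6.08% to 16.7%). The rest of the gene's own span held 46.7% of BRG1 peaks (40.5% to 53.0%) and 48.8% of SMARCC2 peaks (42.7% to 55.0%) in MR49F, against 48.3% (41.5% to 55.1%) and 57.5% (48.8% to 65.7%) in LNCaP. The gene table gives no exons, so introns and exons were not separated.

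RefSeq promoter windows, the 250 bases before a start site and 50 after it, were available as 71 windows of 36 receptor genes. The 5 genes with no entry were NR0B2, NR4A2, VDR, NR2F6 and HNF4G. A peak overlapped 25 and 22 of the 71 windows in the MR49F BRG1 and SMARCC2 lists, against 16 and 8 in the LNCaP lists. The corresponding shares of all 22199 promoter windows were 36.2% and 30.5% in MR49F, against 23.6% and 11.8% in LNCaP. All 4 lists covered 5 of the 71 windows (7.04%), against 7.6% of all promoters, and 43 (60.6%) were covered in no list, against 54.1%.

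Both MR49F lists and neither LNCaP list covered 7 windows (9.86%), against 10.5% of all promoters. They belonged to 6 genes, namely NR1D2 with 2 windows, THRB, NR4A3, NR6A1, an internal start of RXRA and RARA. Both LNCaP lists and neither MR49F list covered 1 window (1.41%), that of NR2F1, against 0.928% of all promoters. LNCaP peaks lay close by at 4 of these genes. At NR1D2 and NR6A1 a LNCaP BRG1 peak joined the same region just outside the window, at −log10 q 2.28 and 3.74. At RARA both LNCaP lists joined the region, at 6.20 and 6.55, and the other THRB window had peaks in all 4 lists. At NR4A3 and RXRA the whole region was of MR49F alone. Around the NR2F1 window, the next region on each side had MR49F peaks of both antibodies.

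**Figure D5:**
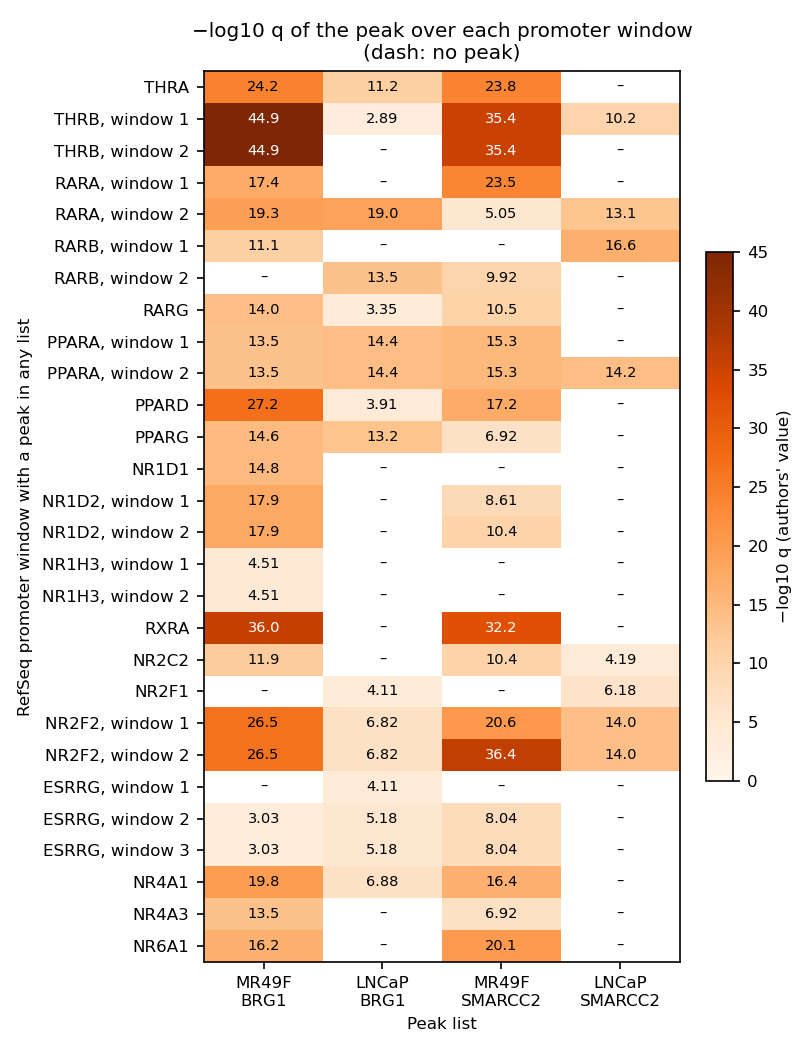
The authors' −log10 q of the peak over each of the 28 receptor promoter windows with a peak in any list (rows), in the 4 peak lists (columns, 1 library each), with a dash where no peak overlapped. The largest values stand in the MR49F columns at THRB (44.9 and 35.4), RXRA (36.0 and 32.2) and the second NR2F2 window (26.5 and 36.4).

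The 250 bases before the start site are shown for 6 receptor genes, chosen to put promoters covered in MR49F alone beside the promoter covered in LNCaP alone and a promoter covered in all 4 lists. They are from RefSeq on GRCh38, written along the gene from 5′ to 3′. Capitals mark GC boxes (CCGCCC on either strand, a known binding sequence of SP factors) or, in NR4A3 and NR6A1, the letters TGACGT on either strand, the core of the cyclic AMP response element. The TGACGT search was added after these sequences had been read.
NR1D2 (chr3:23945036-23945285, plus strand), both MR49F lists: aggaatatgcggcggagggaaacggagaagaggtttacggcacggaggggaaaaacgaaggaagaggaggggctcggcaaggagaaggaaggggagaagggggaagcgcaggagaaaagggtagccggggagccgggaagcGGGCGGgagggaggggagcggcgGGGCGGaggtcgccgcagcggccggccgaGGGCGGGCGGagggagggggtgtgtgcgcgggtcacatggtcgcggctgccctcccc
THRB (chr3:24495709-24495958, minus strand), both MR49F lists: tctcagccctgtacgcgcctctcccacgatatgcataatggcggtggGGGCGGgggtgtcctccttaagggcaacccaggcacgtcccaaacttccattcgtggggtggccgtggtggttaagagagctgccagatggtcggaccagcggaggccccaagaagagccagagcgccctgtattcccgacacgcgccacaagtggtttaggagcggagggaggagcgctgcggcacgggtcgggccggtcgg
NR4A3 (chr9:99821635-99821884, plus strand), both MR49F lists: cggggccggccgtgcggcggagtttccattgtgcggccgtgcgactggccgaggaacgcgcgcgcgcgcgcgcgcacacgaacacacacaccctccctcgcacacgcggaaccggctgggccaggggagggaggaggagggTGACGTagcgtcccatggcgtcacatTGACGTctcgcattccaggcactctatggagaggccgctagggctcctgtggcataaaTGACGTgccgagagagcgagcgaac
NR6A1 (chr9:124771312-124771561, minus strand), both MR49F lists: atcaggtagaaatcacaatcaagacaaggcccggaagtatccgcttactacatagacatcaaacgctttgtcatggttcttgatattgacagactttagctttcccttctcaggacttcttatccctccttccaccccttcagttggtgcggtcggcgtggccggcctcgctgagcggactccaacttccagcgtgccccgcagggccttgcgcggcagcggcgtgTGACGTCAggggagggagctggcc
NR2F1 (chr5:93582972-93583221, plus strand), both LNCaP lists: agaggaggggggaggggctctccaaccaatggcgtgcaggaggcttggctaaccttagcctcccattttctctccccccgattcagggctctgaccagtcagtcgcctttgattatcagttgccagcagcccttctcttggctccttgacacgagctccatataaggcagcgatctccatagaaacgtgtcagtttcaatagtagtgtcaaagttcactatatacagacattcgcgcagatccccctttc
PPARA (chr22:46150538-46150787, plus strand), all 4 lists: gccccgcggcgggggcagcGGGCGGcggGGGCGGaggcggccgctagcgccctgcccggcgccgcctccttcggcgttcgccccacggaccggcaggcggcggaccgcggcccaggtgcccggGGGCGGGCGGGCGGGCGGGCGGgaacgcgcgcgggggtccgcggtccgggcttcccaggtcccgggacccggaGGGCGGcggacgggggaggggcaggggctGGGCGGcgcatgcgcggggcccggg

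The NR1D2 promoter carried 4 GC boxes, THRB 1 and PPARA 9, some overlapping, while NR2F1, NR4A3 and NR6A1 carried none. G and C made up 70.4% of the NR1D2 stretch and 87.2% of the PPARA stretch, against 52.4% in NR2F1. The share was 65.2% in THRB, 68% in NR4A3 and 56.8% in NR6A1. The NR4A3 stretch held 3 matches to TGACGT, at 109, 83 and 25 bases before the start site, and NR6A1 held 2 that overlap as a palindrome read on both strands. TGACGT was found in 7 of the 71 receptor promoters (9.86%), against 8.00% of all promoters.

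Receptor promoters with a peak were richer in G and C than those without. The median was 66.6% in the 28 windows with a peak in any list, 53.6% in the 43 without and 62% over all promoters. GC boxes were found in 17 of 28 windows with a peak and 14 of 43 without (43.7% of the 71 together), against 53.7% of all promoters. The nuclear receptor letters AGGTCA were found on either strand in 13 of the 71 promoters (18.3%), against 10.5% of all promoters. Of these, 3 were among the 28 with a peak and 10 among the 43 without. Paired copies of AGGTCA spaced by 1, 4 or 5 bases were found in 0 of the 71, and in 3, 1 and 0 of the 22199 promoters. AGGTCA with TCA directly before it, a form that ERR and NR5A proteins bind as monomers, was in 0 of the 71, against 0.221% of all promoters, and the palindrome of the androgen response element was in 0 of the 71 and 0 of the 22199. The letters TGANTCA (AP-1) were in 4 of 71 (5.63%, against 5.36%), TGTTTAC (forkhead) in 2 of 71 (2.82%, against 2.45%) and CACGTG (E-box) in 4 of 71 (5.63%, against 7.37%). A match says only that these letters stand in the window.

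Genes that work with these receptors were counted the same way. Of 12 coregulator genes, both antibodies favoured MR49F at 5 and LNCaP at 2, where 44.9% and 4.01% of all coding genes did so. TBL1XR1, a subunit of a corepressor complex, held 17 BRG1 and 15 SMARCC2 peaks in MR49F, against 33 and 29 in LNCaP. NRIP1, a ligand-dependent corepressor, held 3 and 4 in MR49F, against 9 and 8 in LNCaP. Local background was not computed around TBL1XR1 or NRIP1, so a difference of the wider region cannot be told from one at these genes.

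Among 12 targets of LXR and FXR, the receptor gene NR0B2 included, MR49F was favoured by both at 7 and LNCaP at 1. ABCA1, the cholesterol exporter, held 11 and 8 in MR49F, against 4 and 3 in LNCaP. SCD, a fatty acid desaturase, held 8 and 8 in MR49F, against 3 and 1 in LNCaP. The exception toward LNCaP was SLC51A, a bile acid transporter subunit, with 1 and 1 in MR49F, against 5 and 4 in LNCaP. Of 12 clock genes the counts were 8 for MR49F and 0 for LNCaP. BHLHE41 held 5 and 5 in MR49F, against 0 and 1 in LNCaP, and PER1 held 9 and 10 in MR49F, against 6 and 2 in LNCaP.

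Of 11 PPAR and ERR targets, ESRRA itself included, both antibodies favoured MR49F at 7 and LNCaP at 0. ANGPTL4, a lipase inhibitor induced by PPARs, held 7 and 7 in MR49F, against 2 and 2 in LNCaP. Of 14 genes of retinoid handling and response, both antibodies favoured MR49F at 6. The retinoic acid hydroxylase genes CYP26A1, CYP26B1 and CYP26C1 had 0 peaks in every list. Of 8 VDR, PXR and CAR targets the counts were 3 for MR49F and 0 for LNCaP. None of these list counts was tested.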

How the data were processed

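ChIP-seq of BRG1 and SMARCC2 was made in MR49F and LNCaP cells, 1 library per line and antibody. Fixation was with DSG followed by formaldehyde, before sonication, per the labels' protocols. Tools in the submitters' processing notes are MACS2 2.1.0, BWA 0.7.10 and SAMtools, on hg38, with no role stated. The control, duplicate removal and read filters were not given in the sources used here, and depth in reads is unknown.

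Each deposited list holds, per peak, the authors' fold enrichment (a ratio over local background), −log10 p-value, −log10 q-value, a display score and a summit offset. The deposited score was not used. Fold and p-value together gave each peak's local background, whose median within the 10 Mb around a gene was divided by the autosomal median of its list and then MR49F by LNCaP. That step was tested on simulated data.

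Summits were counted per gene with Python 3.11.15, NumPy 2.4.6, pandas 2.3.3 and SciPy 1.17.1, and figures were drawn with matplotlib 3.10.9. Genes and promoters came from RefSeq on GRCh38.p14, the assembly of hg38. Coordinates are counted from 1. Shares have Wilson 95% intervals, which cover counting error only. No test was run. The genes and lists were chosen with earlier results of these data known. Named in full were genes with a lead of at least 3 peaks with each antibody, genes with a region of a single line, and the 8 with the most peaks; the strongest region of a single line was given for the 8 genes with the most such regions and those tied with them. Alternatives were another q-value minimum, lists of equal length, narrower windows, merged summits and a summit distance in place of overlap. Some genes of the related lists are not reported here.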

Additional observations from a re-analysis of the deposited data

Results flagged for a closer look

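At 7 of the 41 receptor genes (17.1%, against 12.7% of all coding genes) the antibodies leaned in opposite directions, with fewer BRG1 and more SMARCC2 peaks in MR49F than in LNCaP. The difference between antibodies was not tested. The MR49F minus LNCaP difference was -8 with BRG1 and 2 with SMARCC2 at NR6A1, and -2 and 6 at THRB. The opposite lean at NR6A1 was lost in other settings, where the SMARCC2 difference was 0 at −log10 q 5 or more and -2 with lists of equal length and with the 10000 strongest peaks. At ESRRG it was -2 and 3, and at VDR -2 and 1. PPARG had -1 and 3, NR2F1 had -1 and 2, and NR4A2 had -1 and 1. The BRG1 counts at THRB and NR4A2 depend on how peaks were split. Region chr3:24137592-24142401 of THRB held 1 BRG1 peak in MR49F against 3 in LNCaP. Region chr2:156332307-156335279 of NR4A2 held 1 in MR49F against 2 in LNCaP. The whole lists also differ more between the lines with SMARCC2, with 1.85 MR49F peaks per LNCaP peak, than with BRG1, with 1.22.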

How the results depend on the processing

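No paired analysis was possible because each line and antibody had 1 library. Of the choices tried, list length moved the results most. With each list at its 25706 strongest peaks, receptor genes with more MR49F peaks with both antibodies numbered 9 in place of 22, and those with more LNCaP peaks 10 in place of 1, while regions of MR49F alone numbered 35 in place of 54 and regions of LNCaP alone 18 in place of 8. With the 10000 strongest the same 4 counts were 3, 6, 8 and 15, against 11% and 11.7% of all coding genes for the first pair. At −log10 q 5 or more, both antibodies favoured MR49F at 24 receptor genes and LNCaP at 2, against 49.2% and 2.44% of all coding genes. In gene spans without flanks the counts were 15 and 0, against 21.7% and 3.08% of all coding genes. The region counts in this section have no share over all regions beside them. In spans alone 30 regions were of MR49F and 2 of LNCaP alone, with 10 kb flanks 4 were of LNCaP alone, and when summits within 200 bp counted as shared 17 were. By that rule 53.7% of MR49F BRG1 and 51.6% of MR49F SMARCC2 peaks paired, against 36.0% and 57.5% in LNCaP; the whole lists gave 62.4% and 58.1% in MR49F, against 39.4% and 55.4% in LNCaP. Of 120 values at 12 named genes, the MR49F share of peaks stayed inside its 95% interval in 83 and left it, or had no peaks, in 25, and the difference reversed in 12; a share inside its interval does not mean an equal difference. The reversed values were, at the shortest list's length, -2 with SMARCC2 at NR6A1, -1 with SMARCC2 at RXRA, THRA and NR1D1, and -2 with BRG1 at THRA and NR1D1. With the 10000 strongest they were -2 with SMARCC2 at NR6A1, -1 with BRG1 at ESRRA and -4 with SMARCC2 at RORA. At −log10 q 5 or more they were -1 with BRG1 at THRA and NR1D1, and in gene spans alone -1 with BRG1 at THRA. The THRA span includes the region with 1 BRG1 peak in MR49F against 3 in LNCaP. Shortening removes more peaks from the MR49F lists by construction. Without replicates or read depth, small differences in peak number cannot be told from counting error. Leads of 3 peaks, such as 13 BRG1 peaks against 10 at THRA, are among these. Larger differences were not tested either, and with 1 library per line and antibody they cannot be told from variation between libraries.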
